A study of Mus musculus with 7 samples.

Results

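The genes of the mitochondrial respiratory chain and ATP synthase were described in single cells of whole mouse kidneys. They were chosen by a rule on the gene symbol alone, which uses no measured value: all genes of the deposited matrix starting with mt-, Nduf, Uqcr or Atp5, or with Cox and a digit of 4 to 8, together with Sdha, Sdhb, Sdhc, Sdhd and Cyc1. This gave 104 of 16272 genes, of which 91 are nuclear and 13 mitochondrially encoded. The matrix held 43745 cells in 16 clusters made by the authors, from 7 adult kidneys of C57BL/6 mice aged 4 to 8 weeks, by a droplet method that counts unique molecular identifiers (UMIs) at transcript 3′ ends. Of the labelled kidneys, 1 each came from Cdh16CremTmG, SclCremTmG and Nphs2CremTmG mice, which carry a Cre under the named promoter with a membrane fluorescent reporter, and 4 came from WT mice. No source used here links the 7 barcode numbers in the matrix to these mice, so the libraries are called 1 to 7 and form a single group. Nothing was compared between genotypes.

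The respiratory chain passes electrons from NADH (complex I) and succinate (complex II) through complex III and cytochrome c to oxygen at complex IV, and ATP synthase (complex V) uses the proton gradient built on the way. Complex II is encoded wholly in the nucleus, whereas complexes I, III, IV and V combine nuclear subunits with a few subunits made inside the mitochondrion from its own circular genome. In the kidney, the tubule segments that reabsorb salt by active transport are known for dense mitochondria, and the distal convoluted tubule is among the richest.

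Several clusters could be named from fixed marker lists. All 11 proximal tubule markers were highest in cluster 3, 6 of 7 loop of Henle markers in cluster 4, 6 of 6 distal convoluted tubule markers in cluster 5, 8 of 8 principal cell markers in cluster 6, and 5 of 7 intercalated cell markers in cluster 7. These are called PT-, LOH-, DCT-, PC- and IC-like cells. By the same check, clusters 1 and 2 are endothelial- and podocyte-like and clusters 10 to 15 are monocyte-, macrophage-, neutrophil-, B, T and natural killer cell-like, although 6 of 8 mural and 3 of 4 fibroblast markers were also highest in cluster 1. Clusters 8, 9 and 16 are given by number. In cluster 8, 2 of 7 intercalated cell markers and 1 of 8 mural markers were highest. The proximal tubule markers summed to 29984 CPM (counts of a gene scaled to a common total per library and cluster) in PT-like cells and to between 1753 CPM in IC-like and 3856 CPM in DCT-like cells among the other 4 tubule clusters. Their part in the comparisons below was not tested. The clusters were built by the authors on these counts, so tests between clusters are not independent of how the cells were divided. Library depth ranged from 4217169 to 49997616 UMIs, and 974 of 42757 distinct barcodes occurred in more than 1 library.

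Promoters of 72 nuclear members were found among the RefSeq promoters (GRCm38.p6, from 250 bases before to 50 after each start), as 77 windows. The 4 shown are those of Sdhd, which encodes a membrane anchor of complex II, Atp5g3, which encodes the c ring of ATP synthase, Cox6a1, a general subunit of complex IV, and Cox7a1. The last is a tissue-restricted subunit of complex IV, described with the other isoforms below. Capitals mark matches, on either strand, to the nuclear respiratory factor motif NRF1 (GCGCA, then any base, then GCGC), to the ETS motif CCGGAAG bound by GABP, and to the oestrogen-related receptor (ERR) motif TCAAGGTCA, and no matches overlap. They lie at chr9:50603800-50604099, chr2:73911277-73911576 and chr5:115348909-115349208 on the minus strand and at chr7:30183921-30184220 on the plus strand.
Sdhd: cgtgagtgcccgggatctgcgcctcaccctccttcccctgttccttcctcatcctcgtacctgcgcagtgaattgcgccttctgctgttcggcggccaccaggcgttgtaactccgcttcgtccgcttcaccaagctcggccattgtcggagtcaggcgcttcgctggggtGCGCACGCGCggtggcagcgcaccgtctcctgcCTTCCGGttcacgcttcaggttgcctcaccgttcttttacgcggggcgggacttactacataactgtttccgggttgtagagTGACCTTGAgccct
Atp5g3: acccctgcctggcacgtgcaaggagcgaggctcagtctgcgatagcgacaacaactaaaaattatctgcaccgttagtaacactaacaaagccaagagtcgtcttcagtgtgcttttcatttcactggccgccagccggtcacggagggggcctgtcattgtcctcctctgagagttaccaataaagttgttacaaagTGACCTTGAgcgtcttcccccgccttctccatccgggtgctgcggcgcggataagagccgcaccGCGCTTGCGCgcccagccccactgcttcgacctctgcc
Cox6a1: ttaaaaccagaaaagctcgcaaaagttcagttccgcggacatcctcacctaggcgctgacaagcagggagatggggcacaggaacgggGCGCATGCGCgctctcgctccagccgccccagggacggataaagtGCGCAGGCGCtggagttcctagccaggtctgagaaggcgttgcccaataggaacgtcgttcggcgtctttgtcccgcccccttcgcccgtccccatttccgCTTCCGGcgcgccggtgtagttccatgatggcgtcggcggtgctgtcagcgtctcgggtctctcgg
Cox7a1: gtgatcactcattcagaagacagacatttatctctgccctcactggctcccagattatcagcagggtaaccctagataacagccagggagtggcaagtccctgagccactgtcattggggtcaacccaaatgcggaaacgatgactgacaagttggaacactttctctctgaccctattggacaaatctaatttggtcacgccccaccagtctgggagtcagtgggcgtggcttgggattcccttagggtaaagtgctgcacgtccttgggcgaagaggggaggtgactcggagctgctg

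The NRF1 motif was present in 20 of the 77 member windows (26.0%), in 9.98% of the 7865 windows of genes tested here and in 4.60% of all 32851 windows. The ETS motif was in 17 member windows (22.1%), against 16.4% of the windows of tested genes. The ERR motif was in 2 member windows, those of Sdhd and Atp5g3 shown above, and in 0.203% of the windows of tested genes. Cox7a1 had none of these letters in its window. A match describes the sequence and does not show a binding site.

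Among mitochondrial genes, mt-Atp8 and mt-Atp6, both subunits of ATP synthase, share 43 bases of the same strand (GRCm38, chrM:7927-7969). The overlap is shown because UMIs that fall in it cannot be told apart between these genes, and its capitals mark the start codon of mt-Atp6.
mt-Atp8 and mt-Atp6: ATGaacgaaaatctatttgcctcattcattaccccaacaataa
The pairs mt-Nd4l and mt-Nd4, mt-Nd5 and mt-Nd6, and mt-Atp6 and mt-Co3 overlap by 7, 14 and 1 bases. Because UMIs mark 3′ ends, counts do not scale with transcript length, and levels of different genes are compared here only as molecules captured. How reads shared with near-identical nuclear or pseudogene copies were counted is not given in the sources used here.

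The nuclear members took up the largest share of the cell's message in DCT-, IC- and LOH-like cells. Summed over all 91 genes, they made up 12.96% ± 1.83 of non-mitochondrial UMIs in DCT-like cells (mean ± SD, n = 7 libraries), 12.6% ± 1.21 in IC-like cells (n = 7) and 11.02% ± 0.668 in LOH-like cells (n = 7). PC-like cells had 7.87% ± 0.596 (n = 6) and PT-like cells 7.68% ± 0.742 (n = 7). Clusters 8 (9.73% ± 1.21, n = 4) and 9 (8.46% ± 0.715, n = 4) had means below LOH-like and above PC- and PT-like cells. Podocyte-like cells (5.54% ± 0.811, n = 4) and endothelial-like cells (4.84% ± 0.868, n = 7) stood between the tubule and the immune clusters. The 6 immune clusters and cluster 16 had means between 3.27% in cluster 10 and 3.94% in cluster 12, neighbours that differed by less than their spread over libraries. DCT- and IC-like cells also differed by less than their spread, as did PC- and PT-like cells. As a share of all UMIs, mitochondrial ones included, the nuclear members reached 9.01% ± 1.18 in DCT-like, 9.43% ± 0.755 in IC-like, 8.38% ± 0.417 in LOH-like, 6.34% ± 0.707 in PC-like and 6.13% ± 0.622 in PT-like cells, so that IC- and DCT-like cells changed places.

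Library by library, the nuclear share of non-mitochondrial UMIs in DCT-like cells had its lowest value at 9.26%, its median at 13.1% and its highest at 14.9%, against 6.54%, 7.98% and 8.48% in PT-like cells. The ranges did not overlap, and within each of the 7 libraries the share was 1.42 to 2.00 times as high in DCT-like cells. LOH-like cells ranged from 9.63% to 11.7% and were above PT-like cells in 7 of 7 libraries. DCT-like cells were above LOH-like cells in 6 of 7 libraries. Where both clusters were present, IC-like cells were 1.40 to 1.76 times as high as PC-like cells, in 6 of 6 libraries.

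The 13 mitochondrial genes followed almost the same order. They took 30.4% ± 1.48 of all UMIs in DCT-like cells, 25.1% ± 2.35 in IC-like, 23.8% ± 3.73 in LOH-like, 20.2% ± 2.23 in PT-like and 19.6% ± 5.26 in PC-like cells, and 8.77% ± 1.71 in cluster 10. The first place of DCT-like cells did not hold at lower mitochondrial shares: among cells with at most 30% mitochondrial UMIs, a limit set on this same measure, the means were 18.14% in DCT-like, 20.56% in IC-like, 16.8% in LOH-like, 14.06% in PT-like and 15.82% in PC-like cells. Across the 16 cluster means, the nuclear and mitochondrial sums per non-mitochondrial UMI had a Pearson r of 0.959 and a Spearman rho of 0.926, a description in which the points share libraries and their denominator. The ratio of nuclear to mitochondrial UMIs varied less, and its mean was between 0.249 in cluster 12 and 0.388 in cluster 9 in 15 of the 16 clusters. DCT-like cells had a ratio of 0.296 ± 0.034, lower than LOH-like cells (0.359 ± 0.061) in 6 of 7 libraries, but the ranges overlapped. This order turned among cells with at most 30% mitochondrial UMIs, where the mean ratio was 0.5584 in DCT-like, 0.5396 in LOH-like and 0.4852 in PT-like cells. Cluster 16, a group of 42 cells in which 6 of 8 proliferation markers were highest, had 0.719 ± 0.201 (n = 3), with libraries at 0.511, 0.735 and 0.911. Its mitochondrial share was 5.43% ± 1.78, the lowest of the clusters, while its nuclear share was within the immune range.

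**Figure D1:**
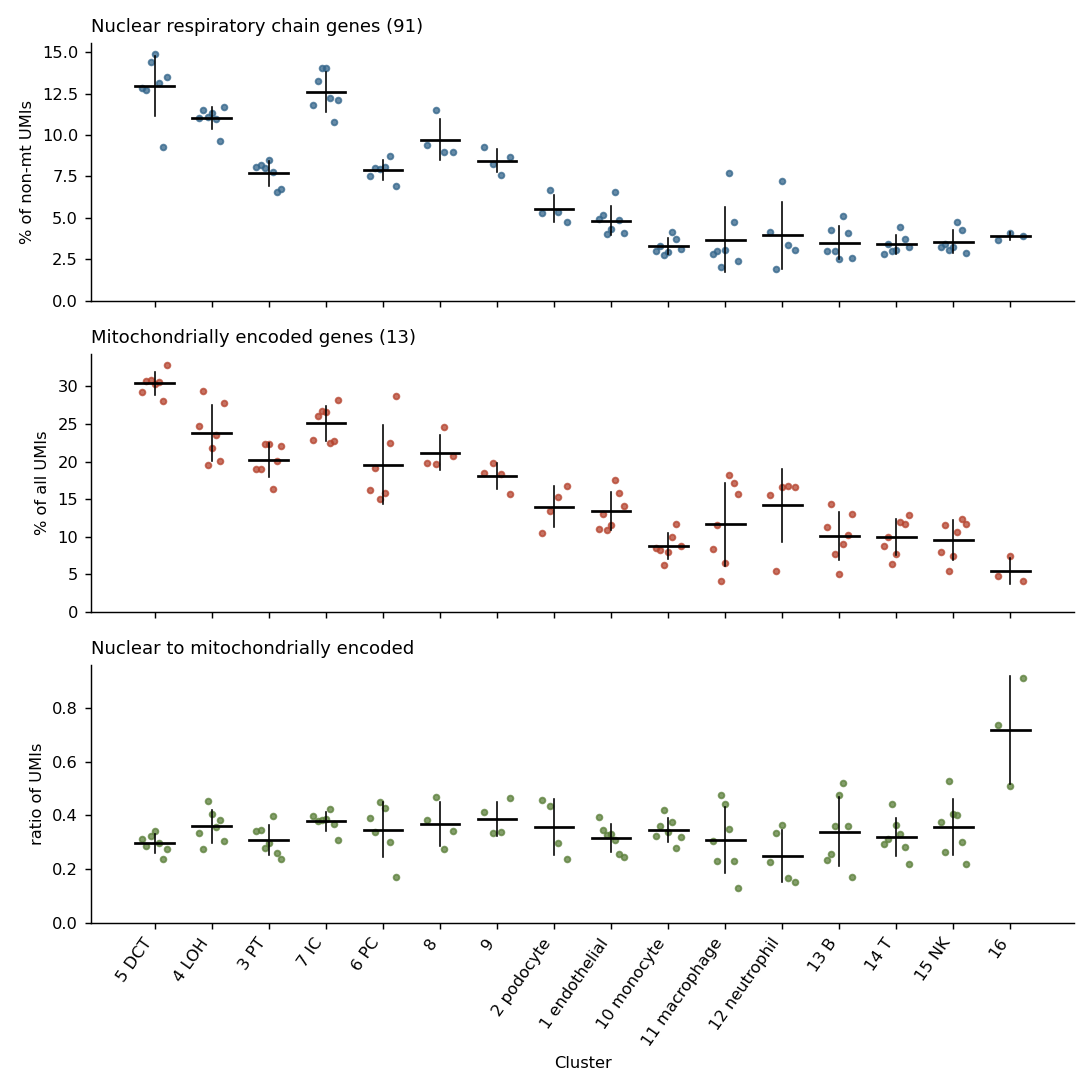
Summed UMIs of 91 nuclear respiratory chain genes (top, percent of non-mitochondrial UMIs), of 13 mitochondrially encoded genes (middle, percent of all UMIs) and their ratio (bottom) in each cluster. Points are libraries with at least 5 cells, long bars means and vertical lines 1 SD, and names on the axis are marker-based (-like). DCT-like cells have the highest means in both upper panels, 12.96% and 30.4%, with IC-like cells at 12.6% within their spread in the top one and ahead in the middle one among cells with at most 30% mitochondrial UMIs (20.56%), and only cluster 16 has a ratio mean above 0.388.

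The mitochondrial share of single cells has an upper end at 50% in this matrix, and DCT-like cells lay closest to it. Their median cell had 31.7% mitochondrial UMIs, against 16.7% in PT-like cells, and 11.97% of them exceeded 45%, against 4.88% of PT-like cells. Above 30% lay 54.9% of DCT-like, 32.1% of LOH-like and 23.4% of PT-like cells, and 27.9% of IC-like and 30.1% of PC-like cells. What part of the cluster means above comes from this upper end was not tested.

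**Figure D2:**
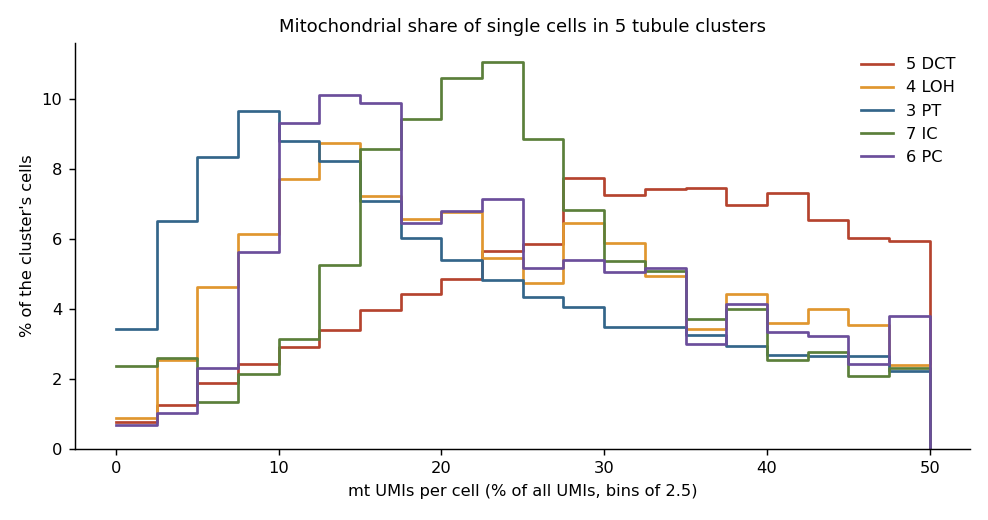
Share of cells (percent of each cluster) by mitochondrial share of UMIs per cell, in bins of 2.5 percentage points, for the 5 tubule clusters. The DCT-like curve stays high up to the end at 50%, with 54.9% of cells above 30%, while the PT-like curve peaks at low shares and has 23.4% above 30%.

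Each member was then tested between clusters with edgeR's quasi-likelihood test on counts summed per library and cluster. The fit had a term for each cluster and library, and p-values were adjusted over 7952 genes by the Benjamini-Hochberg method with a threshold of 0.05. Of the 91 nuclear members 85 passed the filter on low counts, and all 13 mitochondrial genes did. Those not tested were Ndufaf1, Ndufaf5, Atp5s, Cox4i2, Cox8b and Ndufa4l2. Fold changes are log2 with their standard error (SE).

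Between DCT- and PT-like cells, 67 of the 85 nuclear members rose and 4 fell, with a median log2 fold change of 0.66 beside 0.02 over all genes. Over all tested genes, 26.6% rose and 25.9% fell, 52.5% in either direction. By complex, 29 of 36 nuclear genes of complex I rose, 2 of 4 of complex II, 7 of 9 of complex III, 12 of 15 of complex IV and 14 of 15 of ATP synthase. Every one of the 7 nuclear core subunits of complex I and the 11 general nuclear subunits of complex IV rose, and none of these complexes' general subunits fell. Of the mitochondrial genes, 10 of 13 rose (median 0.61), with mt-Nd1, mt-Atp6 and mt-Atp8 the exceptions.

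The largest rise was that of Ndufa1, an accessory subunit of complex I encoded on the X chromosome. Ndufa1 had a lowest, median and highest library value of 831, 1243 and 1613 CPM in DCT-like cells, against 412, 565 and 658 CPM in PT-like cells. The ranges did not overlap, and the log2 fold change was 1.302 (SE 0.18, adjusted p = 1.01e-09, edgeR). Cox7b, a small nuclear subunit of complex IV, was at 1365, 2096 and 2524 CPM in DCT-like cells and at 805, 921 and 1111 CPM in PT-like cells, again without overlap (1.19, SE 0.18, adjusted p = 8.35e-09, edgeR). Atp5h, in the peripheral stalk of ATP synthase, averaged 1296 ± 231 CPM in DCT-like and 703 ± 149 CPM in PT-like cells (SD, n = 7 each), and it was higher in 7 of 7 libraries with ranges that overlapped slightly (1.00, SE 0.17). In complex III, Uqcrh, the hinge protein, rose by 0.77, at 1839 ± 257 CPM in DCT-like and 1178 ± 183 CPM in PT-like cells, whereas Uqcrfs1, the Rieske iron-sulfur protein, had a value of 0.25 that did not pass the test. In DCT-like cells the most captured message among the nuclear members was that of Cox6c, a small subunit of complex IV, at 5254 ± 785 CPM, against 3017 ± 546 CPM in PT-like cells. In complex II, Sdha, the flavoprotein that oxidises succinate, rose by 0.69 and Sdhb, its iron-sulfur partner, by 0.57, whereas the membrane anchors Sdhc (0.03) and Sdhd (0.20) did not pass the test.

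The genes that fell in DCT-like cells were 2 complex I assembly factors and 2 complex IV isoforms. Ndufaf6, an assembly factor, was at 11.4, 13.4 and 17.3 CPM (lowest, median, highest) in DCT-like cells and at 21.5, 34.8 and 37.4 CPM in PT-like cells, with no overlap (-1.09, SE 0.20, adjusted p = 8.77e-07, edgeR). Ndufaf4, another assembly factor, averaged 81.3 ± 13.7 CPM in DCT-like and 115 ± 15.1 CPM in PT-like cells (SD, n = 7 each; -0.40). The assembly factors Ndufaf3 and Ndufaf7 rose by 0.50 and 0.58, Ndufaf7 no longer past the threshold without library 6 (adjusted p = 0.051, edgeR). The 2 isoforms, Cox6a2 and Cox6b2, are described below with the other isoforms.

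The loop of Henle showed the same tendency in the nuclear genes, and no call in the mitochondrial ones. Between LOH- and PT-like cells, 43 of 85 nuclear members rose and 6 fell (median 0.38, beside -0.01 over all genes), where 23.5% of all tested genes rose and 23.1% fell, 46.7% in either direction. Of the 13 mitochondrial genes 0 were called in edgeR (median -0.02), also 0 by DESeq2's Wald test, and 1 was higher at an unadjusted p under 0.05. All 7 nuclear core subunits of complex I rose, led by Ndufv2 (0.87, SE 0.17, adjusted p = 7.91e-06, edgeR), while 12 of 29 accessory subunits rose. ATP synthase had 10 of 15 nuclear genes up, with Atp5h again highest (0.94), and complex IV 5 of 15 up, with Cox7b (0.87) and Cox5b (0.73) ahead. The count of 43 was sensitive: without library 2, 6 or 7 it was 25, 26 and 24. Both comparisons share the PT-like cells as their base.

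Several members fell in LOH- relative to PT-like cells while most of their complex did not. Sdhc, an anchor of complex II, was at 159, 200 and 234 CPM (lowest, median, highest) in LOH-like cells and at 211, 268 and 342 CPM in PT-like cells, lower in 7 of 7 libraries (-0.57, SE 0.16, adjusted p = 0.00206, edgeR). Ndufv3, an accessory subunit of complex I, averaged 518 ± 43.0 CPM in LOH-like and 704 ± 93.6 CPM in PT-like cells (SD, n = 7 each) and was also lower in 7 of 7 libraries (-0.59). Ndufaf6 fell by 1.14 on the log2 scale, to 15.9 ± 3.00 CPM in LOH-like cells, against 32.0 ± 6.21 CPM in PT-like cells. Ndufa6 fell by 0.37, a call that was lost without library 1, 2, 5, 6 or 7, with adjusted p between 0.056 and 0.13 in edgeR. Ndufaf4 (-0.52) and Cox6a2 (-2.68, with only 5 UMIs in LOH-like cells) complete the 6. The assembly factor Ndufaf7 rose by 1.01 (SE 0.21), to 27.9 ± 13.1 CPM in LOH-like cells against 12.7 ± 2.61 CPM in PT-like cells.

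DCT- and LOH-like cells differed mainly in the mitochondrial genes. Of these, 10 of 13 rose in DCT-like cells (median 0.61), including all 7 subunits of complex I, where 6.75% of all tested genes rose and 6.01% fell. Among the nuclear members 11 of 85 rose and 1 fell (median 0.27, beside 0.05 over all genes). The nuclear rises that held on leaving out each library included Ndufa1, at 1241 ± 259 CPM in DCT-like and 727 ± 128 CPM in LOH-like cells (SD, n = 7 each; 1.01, SE 0.19, adjusted p = 1.01e-05, edgeR), and Uqcrq, a small subunit of complex III, at 2136 ± 373 and 1504 ± 160 CPM in the same order (0.76, SE 0.19). Sdhc was also higher in DCT-like cells (0.59), in 7 of 7 libraries. The mitochondrial count fell to between 4 and 6 on leaving out any single library, and to 0 among cells with at most 30% mitochondrial UMIs. In those cells 1 of 13 mitochondrial genes and 56 of 85 nuclear members (median 0.51) rose in DCT- against PT-like cells, beside 1770 of 8049 tested genes. The limit is set on the mitochondrial share itself and left out 54.9% of DCT-like, 32.1% of LOH-like and 23.4% of PT-like cells. It narrows mitochondrial differences by design, so the mitochondrial counts in those cells cannot decide whether such differences exist.

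**Figure D3:**
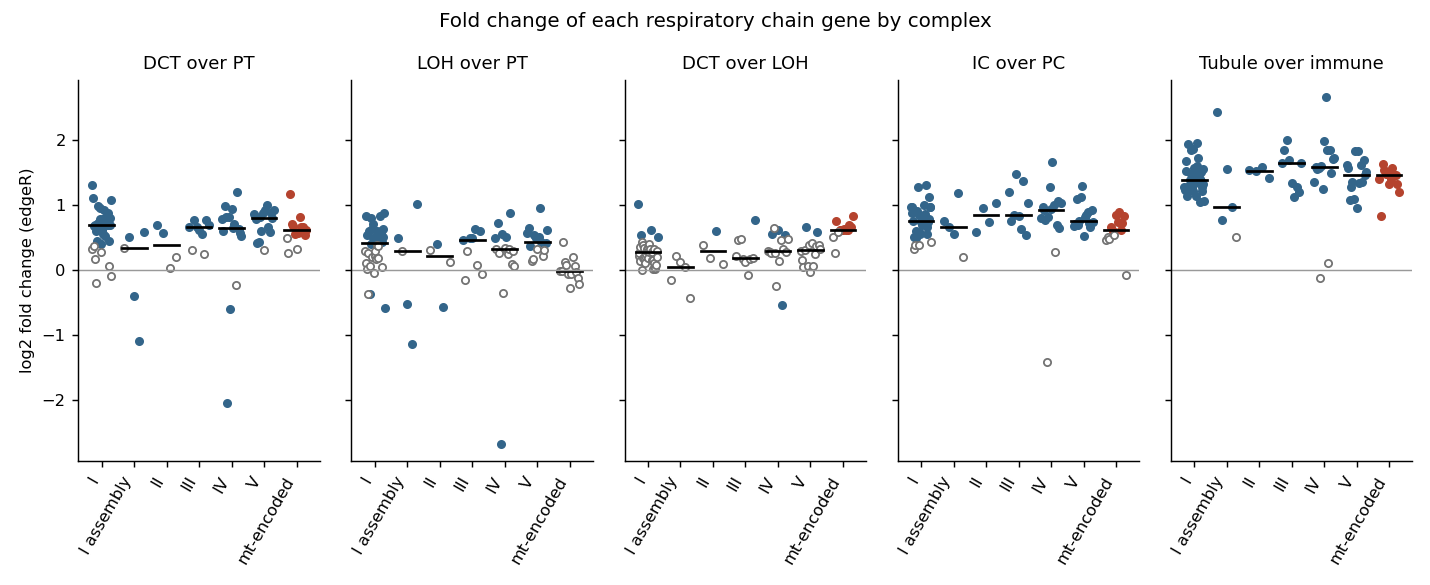
Log2 fold change of each tested member in 5 comparisons (the cells named first over those named second), grouped by complex for nuclear genes, with the mitochondrially encoded genes last. Filled points have an adjusted p under 0.05, open points do not, and bars are medians. Atp5sl, named like ATP synthase genes but not a subunit, is left out. Nuclear medians are above 0 in every panel, and mitochondrial genes are centred on -0.02 for LOH over PT.

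In the collecting duct, the acid-base transporting IC-like cells stood above the water-reabsorbing PC-like cells in nearly the whole set. Of the nuclear members, 77 of 85 rose and 0 fell in edgeR's test (median 0.78, beside -0.01 over all genes), where 12.7% of all tested genes rose and 12.3% fell. The 0 that fell was also 0 by DESeq2's Wald test and at an unadjusted p under 0.05. All 4 genes of complex II, all 9 of complex III and all 15 of ATP synthase rose, with 32 of 36 of complex I and 13 of 15 of complex IV. Of the mitochondrial genes 8 of 13 rose (median 0.61), and the count without single libraries was between 5 and 10.

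Complex III contributed several of the largest rises. Uqcrb, a subunit near the ubiquinone site, had 1375, 1788 and 2814 CPM (lowest, median, highest of 7 libraries) in IC-like cells, against 469, 924 and 1115 CPM over 6 libraries in PC-like cells, without overlap (1.47, SE 0.19, adjusted p = 1.55e-10, edgeR). Uqcrfs1, named above, rose by 1.36 (SE 0.20), and Cyc1, the cytochrome c1 subunit, by 1.20 (SE 0.19). The electron carrier between complexes III and IV, cytochrome c (Cycs), which is no member by symbol, rose by 1.80 (SE 0.22, adjusted p = 1.68e-11, edgeR). In complex I the largest were Ndufs3, a core subunit, at 1.304, and Ndufab1, the acyl carrier protein, at 1.27.

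The c ring of ATP synthase is encoded by 3 genes that give the same mature protein. Atp5g1 averaged 2752 ± 325 CPM in IC-like cells (n = 7) and 1350 ± 230 CPM in PC-like cells (SD, n = 6), a rise of 1.29 (SE 0.21). Atp5g3 rose by 0.82, and Atp5g2, at 796 ± 76.2 CPM in IC-like and 654 ± 157 CPM in PC-like cells, by 0.52. In DCT-like against PT-like cells Atp5g1 and Atp5g3 rose by 0.88 and 0.92, whereas Atp5g2 had 681 ± 106 CPM in DCT-like and 594 ± 89.4 CPM in PT-like cells (SD, n = 7 each) and did not pass the test (0.30, adjusted p = 0.0788, edgeR). Whether these genes differ from each other in their fold was not tested.

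Against the immune clusters 11 to 15 the tubule clusters 3 to 7 were higher in 82 of 85 nuclear members and in all 13 mitochondrial genes, with medians of 1.47 and 1.46. Over all tested genes 43.6% rose and 14.1% fell, and the median was 0.43. The 3 that did not pass were Cox7a2l (0.10, SE 0.10), Cox6a2 (-0.12) and Ndufaf7 (0.50). Monocyte-like cluster 10, which had the highest means of Cox6a2 and Cox7a2l among the clusters compared below, was not in this comparison. The same holds for every later comparison of the tubule with the immune clusters.

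The 13 mitochondrial genes come from a single circular genome that is transcribed as long precursors, so their shares of the mitochondrial UMIs show how the mix differed between clusters. The comparison of mt-Co1 with mt-Nd1 was chosen after its values were seen and is given without a test. mt-Co1, the catalytic core of complex IV, made up 21.7% ± 1.55 of mitochondrial UMIs in DCT-like cells, 19.7% ± 2.29 in LOH-like cells and 15.6% ± 1.64 in PT-like cells (SD, n = 7 each). mt-Nd1, a core membrane subunit of complex I, made up 7.88% ± 0.837, 7.88% ± 0.642 and 10.1% ± 1.10 in the same order. The libraries of DCT-like cells ranged from 19.0% to 24.3% for mt-Co1, all above the PT-like range of 13.4% to 18.4%.

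The number of mt-Co1 UMIs per mt-Nd1 UMI was 2.79 ± 0.462 in DCT-like and 2.52 ± 0.401 in LOH-like cells, against 1.57 ± 0.323 in PT-like cells, and was higher than in PT-like cells in 7 of 7 libraries for both. In the collecting duct the direction was opposite: within the 6 libraries with both, IC-like cells had 2.08 ± 0.328 and PC-like cells 2.70 ± 0.228, lower in IC-like cells in 6 of 6. Cluster 8 had the highest mean, 3.03 ± 0.212 (n = 4), and the non-tubule clusters 1, 2 and 10 to 16 lay between 1.78 and 2.18. Among cells with at most 30% mitochondrial UMIs the ratio was 2.39 ± 0.546 in DCT-like, 2.38 ± 0.347 in LOH-like and 1.45 ± 0.256 in PT-like cells, with the same order against PT-like cells in 7 of 7 libraries.

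In absolute level, mt-Co1 was at 61914, 64950 and 74462 CPM (lowest, median, highest) in DCT-like cells and at 28335, 30254 and 34050 CPM in PT-like cells, with a log2 fold change of 1.17 (SE 0.21, adjusted p = 1.02e-06, edgeR). mt-Nd1 was at 23954 ± 2841 CPM in DCT-like and 20342 ± 3333 CPM in PT-like cells (SD, n = 7 each) and did not pass the test (0.33, adjusted p = 0.185, edgeR). mt-Atp6, the proton channel subunit of ATP synthase, took a smaller part of the mitochondrial UMIs in DCT-like (18.6% ± 1.17) than in PT-like cells (21.4% ± 1.07), in 7 of 7 libraries, and also in IC-like (17.9% ± 1.15) against PC-like cells (19.4% ± 0.779), in 6 of 6. mt-Co3, another complex IV subunit, was close to constant in the 5 tubule clusters, between 19.3% and 19.9%. mt-Nd6, the only member on the light strand, had cluster means between 0.0185% and 0.0649% of mitochondrial UMIs.

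**Figure D4:**
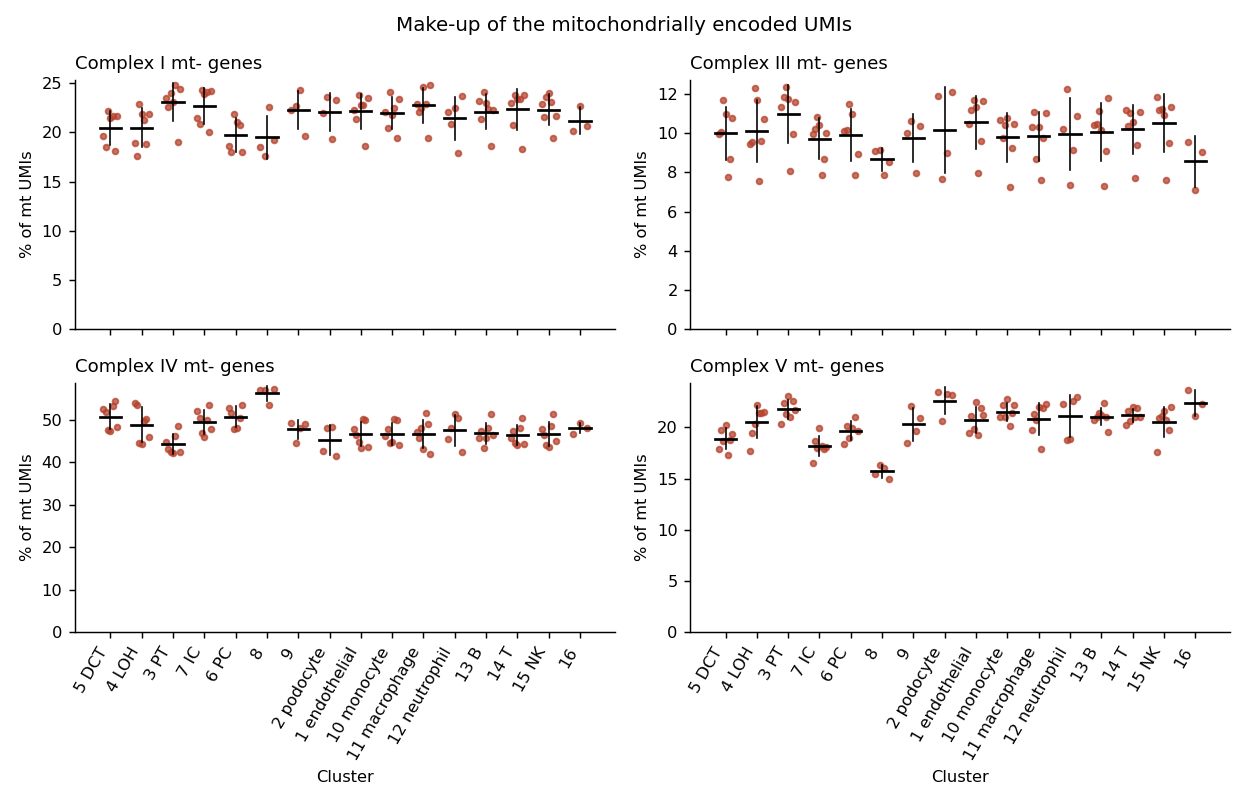
Share of the mitochondrially encoded UMIs (percent) held by the genes of complexes I, III, IV and V in each cluster, with libraries as points, means as long bars and 1 SD as vertical lines. The complex IV genes hold 50.7% in DCT-like and 44.2% in PT-like cells, and cluster 8 stands highest at 56.2% with the lowest share of complex V genes, 15.7%.

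Complex IV has subunits with tissue-restricted isoforms, and these differed from each other in the cluster where they were highest. Cox7a1, the isoform of subunit 7a known from heart and skeletal muscle, had 376, 585 and 827 CPM (lowest, median, highest) in IC-like cells, against 173, 214 and 274 CPM in PC-like cells (1.66, SE 0.23, adjusted p = 1.35e-09, edgeR). Cluster 8 had 436 ± 97.4 CPM (n = 4), DCT-like cells 109 ± 36.8, LOH-like cells 117 ± 36.7 and PT-like cells 73.3 ± 19.8 CPM (n = 7 each), and the tubule stood above the immune clusters by 2.66. The rise over PT-like cells was 0.65 in DCT-like cells, lost without library 2 (adjusted p = 0.064, edgeR), and 0.51 in LOH-like cells, lost under most alternatives. The general isoform Cox7a2 had 2699 ± 268 CPM in IC-like cells (n = 7) and 1602 ± 195 CPM in PC-like cells (n = 6), so Cox7a1 remained the lesser isoform.

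Cox7a1 was also described in 2 kinds of intercalated cell, a split added after seeing the data. The 636 cells of cluster 7 with more UMIs of Slc4a1, the basolateral anion exchanger of acid-secreting type A cells, than of Slc26a4 had 778 ± 212 CPM, and the 876 cells with more Slc26a4 (pendrin, of type B cells) had 443 ± 87.2 CPM (SD, n = 7 libraries each). The first was higher in 7 of 7 libraries. Their summed nuclear share of non-mitochondrial UMIs was 12.9% ± 1.39 and 12.1% ± 0.954, higher in the Slc4a1 cells in 5 of 7 libraries, and their mitochondrial share was 25.5% ± 2.14 and 25.3% ± 2.93.

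Cox6a2, the muscle isoform of subunit 6a, stood out in the monocyte-like cluster 10. Its 7 libraries had a lowest, median and highest value of 47.8, 120 and 322 CPM, against at most 16.9 CPM in any library of PT-like cells. In cluster 10 its 185 UMIs came from 41 of 549 cells. Those 41 cells differed from the other 508 in a further marker looked at after seeing this: Siglech, known from plasmacytoid dendritic cells, was detected in 92.7% of the 41 cells and in 1.18% of the 508, at median depths of 3047 and 2616.5 UMIs. Lyz2, a monocyte and macrophage gene, was detected in 9.76% of the 41 and in 93.5% of the 508. The monocyte marker Ly6c2 went the other way, detected in 78.0% of the 41 cells (1023 CPM) and in 42.7% of the 508 (692 CPM). Plac8, another monocyte marker, was detected in 97.6% of the 41 and in 92.9% of the 508. Its pooled level was lower in the 41 cells, at 3543 CPM against 5626 CPM. The general isoform Cox6a1 was detected in 80.5% and 75.4%. In PT-like cells 702 Cox6a2 UMIs lay in 2.45% of the cells. Cox6a2 was lower in DCT-like (1.41 ± 1.63 CPM) than in PT-like cells (7.22 ± 6.06 CPM; SD, n = 7 each), by -2.04 (SE 0.40), and in LOH-like than in PT-like cells by -2.68 (SE 0.62). These folds rest on few molecules. DCT-like cells held 56 UMIs, 43 of them in library 5, and LOH-like cells held 5. Of the 702 in PT-like cells, 428 came from library 5.

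Cox6b2, known as the testis isoform of subunit 6b, was highest in cluster 9, at 181 ± 107 CPM (n = 4), and 552 of the 601 cells of that cluster, with 768 of its 793 Cox6b2 UMIs, came from library 5. In PT-like cells the libraries lay between 4.67 and 76.9 CPM, with library 5 highest, and the fall of Cox6b2 in DCT- relative to PT-like cells (-0.60) was -0.27 without library 5 (adjusted p = 0.41, edgeR). Between IC- and PC-like cells Cox6b2 rose by 1.27 (SE 0.36), at 31.3 ± 10.5 and 22.1 ± 16.6 CPM in the 6 libraries with both. This fitted fold is larger than these means alone would give, and PC-like cells held only 49 UMIs. Library 3 was the exception in direction, at 44.5 CPM in IC-like and 51.6 CPM in PC-like cells.

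The remaining isoforms were near 0 everywhere. Cox4i2, an isoform of subunit 4 known from the lung, had 19 UMIs in all, of which 14 lay in the endothelial-like cluster 1 (6.29 CPM, exact Poisson 95% interval 3.44 to 10.5). Ndufa4l2, a gene induced by low oxygen, had 35 UMIs, with 17 in cluster 1 (7.63 CPM, interval 4.45 to 12.2) and 15 in PT-like cells (0.211 CPM). Cox8b, a muscle and brown fat isoform in the mouse, had 27, of which 20 lay in DCT-like cells (0.808 CPM, interval 0.493 to 1.25). Intervals cover counting error only and treat each UMI as independent. In cluster 1, however, 7 of the 17 Ndufa4l2 UMIs lay in 1 cell of library 2. Of the 14 Cox4i2 UMIs there, 5 lay in 1 cell of library 3. For Cox8b, 4 of the 20 UMIs in DCT-like cells lay in 1 cell of library 3. The general counterparts Cox4i1 and Cox8a stood at 3338 ± 417 and 3880 ± 547 CPM in DCT-like cells.

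Cox7a2l, known for a factor that joins complexes III and IV into supercomplexes, was called higher in none of the 5 comparisons. Whether the allele of these C57BL/6 mice encodes a working factor was not examined. The log2 fold change of Cox7a2l was 0.31 in LOH- over PT-like, 0.28 in IC- over PC-like and -0.23 in DCT- over PT-like cells, none past the threshold. Its libraries had 228, 249 and 291 CPM (lowest, median, highest) in DCT-like cells, against 408, 430 and 472 CPM in LOH-like cells. The groups did not overlap, yet the adjusted p depended on the fit (-0.54, SE 0.17, adjusted p = 0.0214, edgeR), reaching 0.11, 0.075 and 0.12 without library 2, 5 and 6. PT-like cells had 321 ± 64.9 CPM, IC-like cells 375 ± 39.0, monocyte-like cluster 10 578 ± 39.4 and T cell-like cluster 14 545 ± 53.9 CPM (SD, n = 7 each). Of the 91 nuclear members, 39 had their highest mean per non-mitochondrial UMI in DCT-like and 38 in IC-like cells, among the 11 clusters compared, 7 in LOH-like cells, 3 in PT-like cells (Ndufa6, Ndufv3 and Ndufaf6), 2 in cluster 1 (Cox4i2 and Ndufa4l2) and 2 in cluster 10 (Cox6a2 and Cox7a2l).

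**Figure D5:**
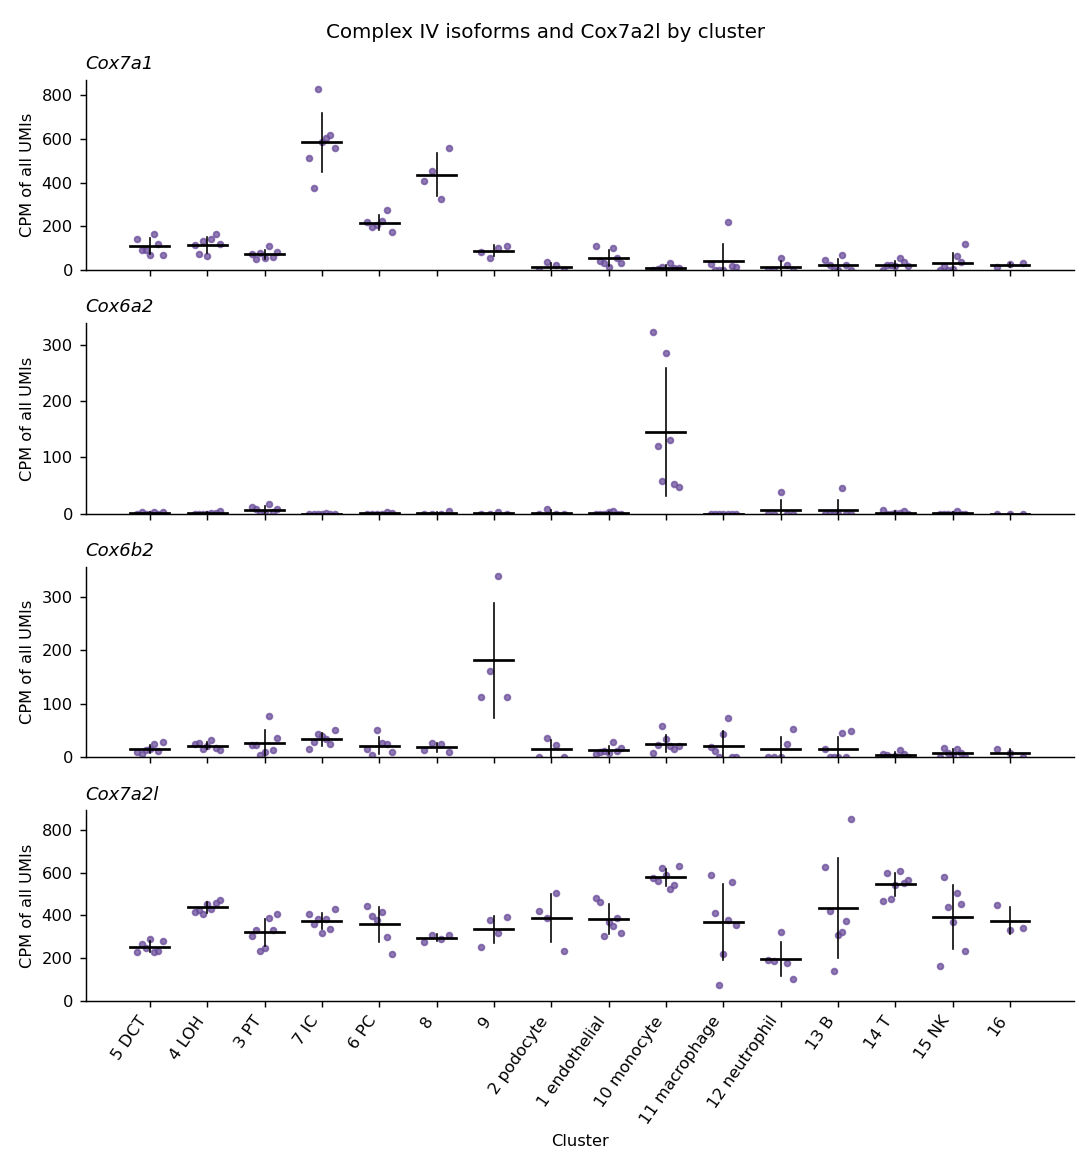
CPM of all UMIs of 3 complex IV isoforms and of Cox7a2l by cluster, with libraries of at least 5 cells as points, means as long bars and 1 SD as vertical lines. Cox7a1 is high in IC-like cells and cluster 8, Cox6a2 in cluster 10 and Cox6b2 in cluster 9, while Cox7a2l is lowest among the tubule clusters in DCT-like cells at 255 CPM.

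The lists of genes around the chain are read against the shares of all tested genes. In DCT- against PT-like cells, where 26.6% of all genes rose and 25.9% fell, 10 of 17 tested tricarboxylic acid cycle genes rose (median 0.56), 9 of 70 mitochondrial ribosome genes rose and 17 fell (median -0.06), 5 of 24 assembly factors outside the Nduf family rose and 6 fell (median -0.07), and 73 of 80 cytosolic ribosome genes fell (median -0.70). The falls among mitochondrial ribosome genes and the rises and falls among assembly factors were near or below those shares. In LOH- against PT-like cells, where 23.5% of all genes rose and 23.1% fell, the cycle had 7 up and 2 down of 17, the mitochondrial ribosome 8 up and 18 down of 70, the assembly factors 5 up and 5 down of 24, and the cytosolic ribosome 42 of 80 down. In IC- against PC-like cells, where 12.7% of all genes rose and 12.3% fell, the cycle had 16 of 17 up, the mitochondrial ribosome 37 of 70 up, the assembly factors 7 of 24 up, and the cytosolic ribosome 4 up and 1 down of 80. Between DCT- and LOH-like cells (6.75% and 6.01% over all genes) the cycle had 1 up, the mitochondrial ribosome 1 up and 2 down, the assembly factors 1 up and 1 down, and the cytosolic ribosome 18 down. Against the immune clusters, where 43.6% of all genes rose and 14.1% fell, 17 of 17 cycle genes, 58 of 70 mitochondrial ribosome genes, 22 of 24 assembly factors and 2 of 80 cytosolic ribosome genes were higher in the tubule, and 76 of the last were lower.

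Of 13 tested regulators of mitochondrial gene expression, 2 rose and 2 fell in DCT- against PT-like cells, less than the 26.6% and 25.9% over all genes, so the list as a whole did not stand out and single genes are given. Ppargc1a, the coactivator that drives mitochondrial biogenesis, rose by 1.49 (SE 0.19, adjusted p = 2.24e-11, edgeR) in DCT-like and by 1.87 (SE 0.19) in LOH-like relative to PT-like cells. Esrrg, an oestrogen-related receptor, rose by 0.66 and 0.53 in the same comparisons, and Top1mt, the mitochondrial topoisomerase, fell by 1.25 and 1.53. Slirp, which stabilises mitochondrial messages, fell by 0.33 and 0.56, and its partner Lrpprc by 0.47 in LOH- relative to PT-like cells. Ppargc1b, a relative of Ppargc1a, rose by 0.61 in LOH- relative to PT-like cells and fell by 0.65 in DCT- relative to LOH-like cells. In IC- relative to PC-like cells Ppargc1b rose by 1.61 (SE 0.29), Esrrg by 0.95, Lrpprc by 0.78 and Esrra by 0.55, while Ppargc1a had a value of -0.11 that did not pass the test. Tfam, Nrf1 and Gabpa passed it in none of the 5 comparisons. Against the immune clusters 6 of the 13 rose in the tubule and Yy1 fell (-0.37). Over all genes 43.6% rose and 14.1% fell, so the rises were about that share.

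Among carriers and associates of the chain, 2 of 4 rose and 1 fell in DCT- against PT-like cells, 1 rose and 1 fell in LOH- against PT-like cells, 0 passed in edgeR between DCT- and LOH-like cells (1 at an unadjusted p under 0.05), 3 of 4 rose in IC- against PC-like cells and 4 of 4 in the tubule against the immune clusters. With 4 genes, the LOH- against PT-like count is about the 23.5% and 23.1% over all genes. Atpif1, the inhibitor of ATP synthase, fell by 1.12 (SE 0.18, adjusted p = 3.55e-08, edgeR) in DCT-like and by 1.08 in LOH-like relative to PT-like cells.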

How the data were processed

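Libraries from 7 whole kidneys were made with a Chromium 3′ kit, per the labels, and the submitters' processing notes name Cell Ranger 1.3, STAR and mm10 (GRCm38.p4). The authors deposited a matrix of raw UMI counts per gene and cell with a cluster number for each cell. It holds 43745 of the 57979 cells the labels state, with 707 to 15000 UMIs per cell and at most 50.0% mitochondrial UMIs. How cells were filtered, clustered or screened for doublets is not given in the sources used here, and no doublet caller was run.

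Counts were summed per library (the number ending each barcode) and cluster, keeping sums of at least 5 cells. All 16 clusters entered a single fit with edgeR 4.0.16 (R 4.3.3): TMM, filterByExpr by cluster, and terms for cluster and library. A library number was taken to mark a single kidney in every cluster, which no source used here states. The library block is therefore part of the design. P-values measure the spread between libraries, and these counts also shaped the clusters. The steps were tested on simulated data. Levels are CPM of all UMIs unless stated, and intervals cover counting error only. Alternatives were DESeq2 1.42.0, its size factors, keeping genes of low count, requiring 20 cells or more in each sum, library sizes without mitochondrial genes, cells thinned to 1000 UMIs (2494 shallower cells left out), cells with at most 30% mitochondrial UMIs (31244 cells), no library block, and leaving out each library.

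The rule for members uses symbols alone, but it and the lists were chosen with earlier results of these data known. Named were all mitochondrial genes, per complex and comparison up to 3 of the highest and 3 of the most changed members in each direction, paralog sets, members that fell where most of their complex rose, members near 0, and regulators. The intercalated cell split, the markers in Cox6a2 cells and the mt-Co1 ratios in cells with a low mitochondrial share were added after seeing the data.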

Additional observations from a re-analysis of the deposited data

Results flagged for a closer look

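Of 87 sets of library values tested for a value far from the others, 7 held one, where chance gives about 1 in 20. Library 6 was low in the summed nuclear genes in 2 clusters: 9.628% of non-mitochondrial UMIs in LOH-like cluster 4, with the other libraries at 10.97% to 11.68%, and 9.258% in DCT-like cluster 5, with the others at 12.72% to 14.91%. Library 2 was high in cluster 8, at 11.52% against 8.975% to 9.408%. The summed mitochondrial genes were at 5.473% of UMIs in library 4 of neutrophil-like cluster 12, against 15.53% to 16.72%, a sum over 7 cells.

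Library 5 held the flagged value in 3 single genes. mt-Co1 was at 74460.0 CPM there in DCT-like cells, against 61910.0 to 66780.0 CPM. Cox6b2 was at 76.93 CPM in PT-like cells, against 4.671 to 35.53 CPM. Cox6a2 was at 1.055 CPM in IC-like cells, against 0 in the other libraries. That value is 3 UMIs in 510 cells, too few to set the library apart.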

How the results depend on the processing

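No called fold change of a member changed sign, but the order of some levels turned in cells with at most 30% mitochondrial UMIs. Between DCT- and PT-like cells, the 10 mitochondrial genes called higher became 6 without the low-count filter, 1 in cells with at most 30% mitochondrial UMIs and 6 without the replicate block, and the 4 nuclear genes called lower became 0 after thinning, 2 in those cells and 2 without the block. Between LOH- and PT-like cells, the 43 nuclear genes higher became 28 with DESeq2 size factors, 16 without the filter, 25 in cells with at most 30%, 24 without the block and 24 to 43 without single libraries, the 6 lower became 3 after thinning, and the mitochondrial genes (0 each way) had 1 higher and 1 lower at 20 or more cells per sum and 0 to 1 higher without single libraries. Between DCT- and LOH-like cells, the 10 mitochondrial genes higher became 4 with DESeq2, 4 with its size factors, 4 without the filter, 0 in cells with at most 30%, 1 without the block and 4 to 6 without single libraries; the 11 nuclear genes higher became 2 in cells with at most 30%, 3 without the block and 6 to 10 without single libraries; and the 1 lower became 0 without the filter, with library sizes that leave out mitochondrial genes, after thinning, without the block and in 0 to 1 without single libraries. Between IC- and PC-like cells the 8 mitochondrial genes higher became 4 after thinning, 1 without the block and 5 to 10 without single libraries. DESeq2 called 1 nuclear gene lower in the tubule than in immune cells, against 0. The causes were not tested. The summed nuclear levels of clusters 3 to 7, per all UMIs 6.13%, 8.38%, 9.01%, 6.34% and 9.43%, were 7.676%, 11.02%, 12.96%, 7.866% and 12.61% per non-mitochondrial UMI. In cells with at most 30% mitochondrial UMIs, the nuclear level of cluster 4 was 8.95%, the mitochondrial levels of clusters 3, 4, 5 and 7 were 14.06%, 16.8%, 18.14% and 20.56%, and their nuclear-to-mitochondrial ratios 0.4852, 0.5396, 0.5584 and 0.4873, so that IC-like cells passed DCT-like cells in mitochondrial share and DCT-like cells passed LOH- and PT-like cells in the ratio. Depth limits the rare isoforms, with 19 to 35 UMIs in all.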
